A study of Mus musculus with 6 samples.

Results

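The genes described here are 10 hypothalamic peptides and receptors of reproductive control, taken by symbol from the deposited count table. They are the tachykinin precursors Tac1 and Tac2 with the receptors Tacr1 and Tacr3, kisspeptin (Kiss1) and its receptor Kiss1r, the releasing hormone Gnrh1, the inhibitory peptide precursor Npvf, and the steroid receptors Esr1 and Pgr. All 10 were found among 18228 genes, and all 10 passed the low-count filter. RNA was sequenced from the hypothalamus of 3 mice aged 22 months (aged) and 3 mice aged 12 weeks (young). The animals came from groups of 5 that had been through a behavioural experiment, in a study of hypothalamic genes that go with cognitive decline in ageing. The labels give no strain, sex, genotype or batch, and say that the mice had free food and a regular light cycle. Each library is 1 mouse.

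As background, reproduction is driven by neurons that release gonadotropin-releasing hormone (GnRH) in pulses onto the pituitary. Kisspeptin neurons of the arcuate nucleus, which also make neurokinin B (from Tac2) and dynorphin (from Pdyn), set these pulses, with neurokinin B acting through Tacr3. Sex steroids feed back on these neurons largely through the receptors encoded by Esr1 and Pgr, and the RFamide peptides made from Npvf restrain the axis. In whole tissue, fewer cells of a type and less RNA per cell cannot be told apart.

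Several facts of the libraries bear on these genes. Libraries held 17208291 to 18884403 counted reads, so 1 read was worth 0.0519 to 0.0586 CPM (reads relative to the library total, scaled by trimmed-mean factors). The 4 Y-linked genes on the list for a check of sex summed to 184 to 203 CPM in the aged and 1.38 to 1.88 CPM in the young libraries. By this check the aged libraries read as male and the young ones as female, which the labels do not state. Age and this sex-linked signal therefore cannot be told apart in any comparison here. All 12 defining hypothalamic markers were detected, from Pmch, Avp and Oxt down to Agrp. Of the 12, Avp rose (log2 fold change 0.60 ± 0.06 SE, edgeR adjusted p = 0.00248), Hcrt fell and 10 did not pass. Over all genes tested, 6.86% were called. The 8 pituitary markers summed to 225 CPM in young replicate 3 and 16.1 CPM in young replicate 2, against 2.17 CPM in young replicate 1 and 2.58 to 7.67 CPM in the aged libraries. Prl and Gh, the prolactin and growth hormone genes, made up most of the sum in young replicate 3, at 142 and 78.3 CPM. The 7 markers of cortex, hippocampus and amygdala summed to 74.5 to 89.5 CPM in the aged and 94.9 to 295 CPM in the young libraries, highest in young replicate 2. Of the 6 tested, all had log2 fold changes below 0, and Neurod6 and Cux2 fell, where 3.64% of all genes tested were called lower.

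Of the 10 genes, Tac1 rose and Npvf fell in aged against young mice, and 8 did not pass. For these genes too, age cannot be told apart from the Y-linked signal. Over all 14702 genes tested, 3.22% were called higher and 3.64% lower, 6.86% in all, at an edgeR adjusted p under 0.05. Levels did not overlap between the ages for Tac1, Tac2 and Npvf, where 31.7% of all genes tested did not overlap. The median log2 fold change of the 10 was 0.04, beside -0.0035 over all genes. An unadjusted p under 0.05 was found for Tac1, Tac2, Npvf and Esr1, and for 26.2% of all genes.

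**Figure D1:**
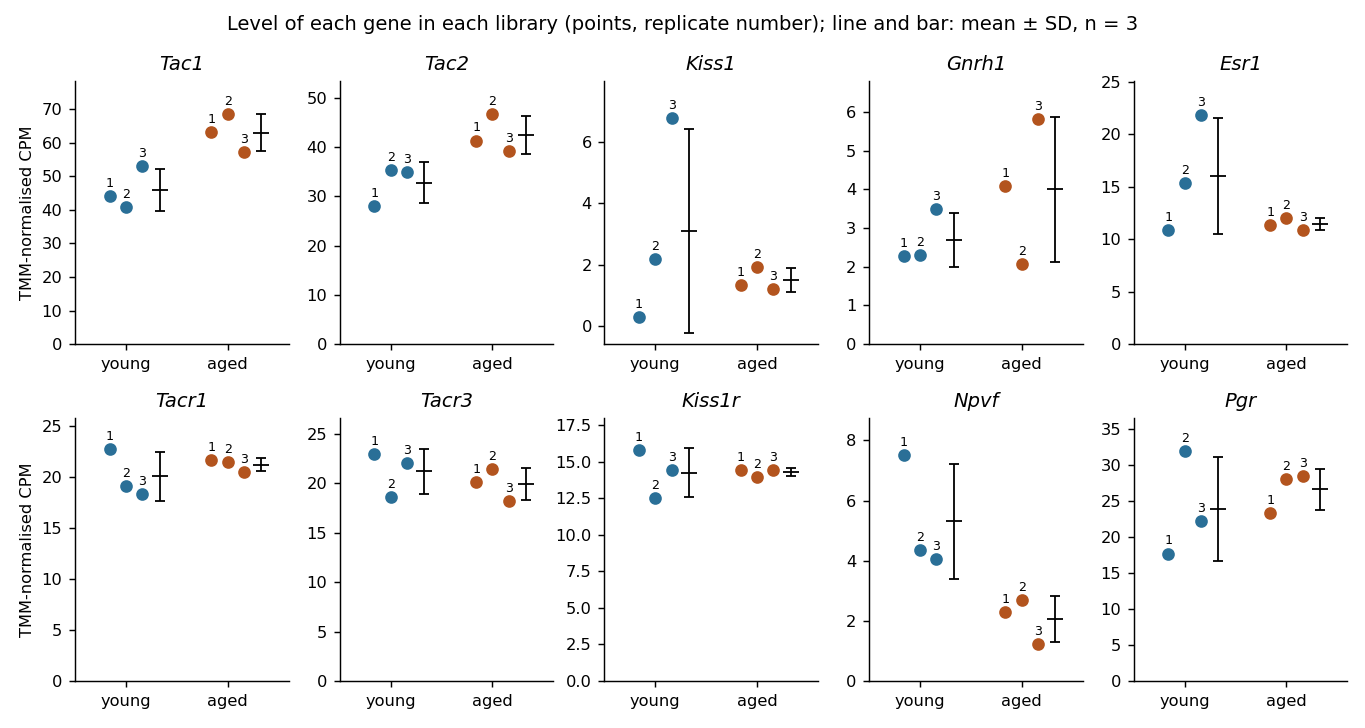
Each panel plots the TMM-normalised CPM of 1 gene in the 3 young (blue) and 3 aged (orange) libraries, with the replicate number at each point and the mean ± SD beside each group. The aged points lie above all young points for Tac1 and Tac2 and below them for Npvf, while young Kiss1, Esr1 and Pgr are widely spread.

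Because Tac1, Tac2 and Npvf are the 3 genes without overlap, the 250 bases before their start sites are printed, from RefSeq on build GRCm38.p6. The count tables hold no coordinates and were made on another build, GRCm39. Capitals mark matches to short motifs, searched on both strands. The half-site of the cyclic AMP response element, which the full element contains, was spelled TGACG. The E-box searched, a site of basic helix-loop-helix factors, was CACGTG. The core bound by many homeodomain factors was taken as TAATTA. The TATA box, which places the start site in some promoters, was TATAAA. The GC box bound by Sp1-like factors was GGGCGG. The Tac1 window is chr6:7554811-7555060 (+ strand), the Tac2 window chr10:127724228-127724477 (+ strand) and the Npvf window chr6:50654446-50654695 (- strand).
Tac1: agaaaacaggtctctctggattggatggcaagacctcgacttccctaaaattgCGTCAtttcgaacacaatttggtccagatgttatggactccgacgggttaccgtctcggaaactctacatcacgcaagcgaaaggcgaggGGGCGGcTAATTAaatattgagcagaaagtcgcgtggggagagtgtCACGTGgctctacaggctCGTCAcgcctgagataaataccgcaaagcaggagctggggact
Tac2: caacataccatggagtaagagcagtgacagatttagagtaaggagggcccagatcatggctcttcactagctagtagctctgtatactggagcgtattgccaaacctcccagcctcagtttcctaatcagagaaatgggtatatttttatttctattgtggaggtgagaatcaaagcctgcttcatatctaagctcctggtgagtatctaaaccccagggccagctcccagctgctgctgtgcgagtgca
Npvf: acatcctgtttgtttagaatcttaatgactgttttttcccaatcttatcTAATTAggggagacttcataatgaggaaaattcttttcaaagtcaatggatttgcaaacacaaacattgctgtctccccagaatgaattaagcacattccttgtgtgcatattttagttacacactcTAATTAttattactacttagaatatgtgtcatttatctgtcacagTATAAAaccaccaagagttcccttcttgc

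The Tac1 window held 2 matches to TGACG, ending in a copy 43 bases before the start, with CACGTG at 61, TAATTA at 100 and GGGCGG at 107 bases before it. The Npvf window held TATAAA at 29 and TAATTA at 74 and 201 bases before the start. The Tac2 window held none of the motifs searched. Over 32851 windows of the same length, TGACG occurred in 17.8%, CACGTG in 6.02%, TAATTA in 4.84%, TATAAA in 12.4% and GGGCGG in 32.7%. Of the 10 windows found for 9 of the 10 genes (Esr1 has 2, and Gnrh1 was not matched), 5 held TGACG, those of Tac1, Kiss1, Kiss1r, Tacr1 and Tacr3. None held the palindromic oestrogen response element (0.0639% of all windows), the palindromic response element shared by the progesterone and glucocorticoid receptors (0.387%), the full cyclic AMP element TGACGTCA (1.55%) or the AP-1 element TGANTCA (6.75%). A match is a run of letters and not evidence of binding, and the lack of one says nothing of a factor.

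Tac1 encodes the precursor of substance P and neurokinin A. Its level was 63.1, 68.4 and 57.3 CPM in aged replicates 1, 2 and 3, and 44.2, 40.8 and 53.0 CPM in the young ones. The lowest aged library was above the highest young one, young replicate 3. Means were 63.0 ± 5.54 and 46.0 ± 6.27 CPM (SD, n = 3 each), and Tac1 rose 1.37-fold, a log2 fold change of 0.45 with an SE of 0.10 (edgeR adjusted p = 0.0335). The call was lost when any library but young replicate 3 was left out (adjusted p = 0.0533 to 0.10), with log2 fold changes of 0.38 to 0.52. With the trend of counts on gene length removed, Tac1 stood at 0.35 with an adjusted p of 0.0548.

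Tac1 is also expressed in striatum and in the habenula, so markers of both are given beside it. Over all genes tested, 3.22% were called higher and 3.64% lower. The 9 striatal markers summed to 521, 363 and 403 CPM in the aged libraries and 355, 343 and 388 CPM in the young ones. Of these 9, Penk (enkephalin precursor, log2 fold change 0.54 ± 0.13 SE) and Gpr6 (1.35 ± 0.20) rose, and Drd1, Ppp1r1b, Adora2a and the others did not pass. Aged replicate 1 had the highest striatal sum, while aged replicate 2 had the highest Tac1. Among the young libraries, replicate 3 was the highest and replicate 2 the lowest for both. The 8 thalamus and habenula markers summed to 98.0 to 110 CPM in aged and 122 to 214 CPM in young libraries. Of the 7 tested, Tcf7l2 and Plekhg1 fell, and 5 did not pass. Of the 7, 6 had log2 fold changes below 0 and 1 above, with a median of -0.47. Gpr151 and Chrnb4 of this list did not pass and had log2 fold changes of 0.16 and -0.03. Chrna3 and Nwd2 of the same list did not pass (edgeR adjusted p = 0.0511 and 0.0624). Over the alternative settings their log2 fold changes were -0.79 to -0.38 and -0.60 to -0.26. The part of either tissue in the Tac1 result was not tested.

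Tac2, the neurokinin B precursor, had a change of like size that did not pass. It stood at 41.4, 46.8 and 39.3 CPM in the aged libraries and 28.0, 35.4 and 35.0 CPM in the young ones. The groups did not overlap, and the log2 fold change was 0.37 ± 0.11 SE (95% interval 0.13 to 0.61, edgeR adjusted p = 0.0646). Of 16 alternative settings, 2 called it higher and 14 did not. The 2 were DESeq2 (adjusted p = 0.0241) and edgeR with the replicate number as a block (adjusted p = 0.0449). With the length trend removed, Tac2 stood at 0.24 (edgeR adjusted p = 0.117). Within libraries the ratio of Tac1 to Tac2 FPKM (reads relative to gene length and library total) was 0.973 to 1.02 in aged and 0.767 to 1.05 in young mice. Aged replicate 2 was the highest library for both tachykinin genes.

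Neither tachykinin receptor passed the test. Tacr1, the substance P receptor, stood at 21.7, 21.4 and 20.5 CPM in aged and 22.8, 19.1 and 18.3 CPM in young libraries. Its log2 fold change was 0.08 (95% interval -0.14 to 0.30, edgeR adjusted p = 0.646). Tacr3, the neurokinin B receptor, stood at 20.1, 21.5 and 18.2 CPM in aged and 23.0, 18.6 and 22.1 CPM in young libraries. Its log2 fold change was -0.09 (95% interval -0.32 to 0.14, edgeR adjusted p = 0.633). For both receptors the aged values overlapped the young range. The FPKM ratio of Tac2 to Tacr3 was 8.75, 9.27 and 9.18 in the aged libraries and 5.19, 8.11 and 6.76 in the young ones, without overlap. Tac2 alone did not overlap either, nor did 31.7% of all genes tested. How often ratios of other gene pairs overlap was not computed. The ratio of Tac1 to Tacr1 was 11.6, 12.7 and 11.2 in aged and 7.75, 8.52 and 11.6 in young libraries, where young replicate 3 reached the aged range.

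Kiss1 had the widest spread of the 10 genes. It had 24, 37 and 21 reads in the aged libraries (1.35, 1.92 and 1.21 CPM) and 5, 38 and 122 reads in the young ones (0.293, 2.18 and 6.79 CPM). Young replicate 1 was below every aged library and young replicates 2 and 3 were above them, so the young range encloses the aged range. The young libraries differed 23.2-fold from highest to lowest, a spread of at least 20-fold that 0.0272% of the genes tested had. The coefficient of variation was 108% in young and 25.3% in aged mice, where counting error alone gives 13.5% and 19.1%. Its log2 fold change was -1.05 ± 0.72 SE (edgeR adjusted p = 0.394), and without young replicate 3 it turned to 0.28 (adjusted p = 0.824).

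In the GENCODE M21 annotation, Kiss1 overlaps Golt1a and a joined gene model, Gm28040, on the same strand. Golt1a had 0 or 1 read in every library. The gene length behind the deposited FPKM of Kiss1 was 2.46 kb, 3.16 times its longest M21 transcript (0.779 kb). The counted model was thus longer than the kisspeptin transcript of that annotation, and how many of its reads lie in that transcript was not tested.

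Kiss1r, the kisspeptin receptor carried by GnRH neurons, varied least of the 10 among the aged mice (coefficient of variation 1.93%). Counting error alone gives 6.21%, so so small a spread says nothing of the mice. It stood at 14.5, 14.0 and 14.4 CPM in aged and 15.8, 12.5 and 14.4 CPM in young libraries. Aged over young gave a log2 fold change of 0.0032 (95% interval -0.23 to 0.23, edgeR adjusted p = 0.990), and without young replicate 2 it was -0.075. Kiss1r overlaps R3hdm4 on the opposite strand, and the labels do not say whether counting used the strand. R3hdm4, at 52.2 to 71.1 CPM, did not pass either (edgeR adjusted p = 0.248).

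Gnrh1, the precursor of GnRH, had 73, 40 and 101 reads in the aged libraries and 39, 40 and 63 in the young ones. In CPM these were 4.09, 2.08 and 5.83, against 2.29, 2.30 and 3.50. Aged replicate 2 was the lowest library of all, and aged replicates 1 and 3 were the highest, so the groups overlapped. For Gnrh1 the log2 fold change was 0.55 ± 0.34 SE (95% interval -0.21 to 1.32, edgeR adjusted p = 0.338). It depended on single libraries, at 0.88 (adjusted p = 0.0565) without aged replicate 2 and 0.19 (adjusted p = 0.802) without aged replicate 3. GnRH cell bodies are few and lie mainly in the preoptic area. The 5 preoptic markers summed to 228, 185 and 209 CPM in the aged libraries and 159, 178 and 191 CPM in the young ones. Aged replicate 2 had the lowest sum of the aged libraries, where Zic1 stood at 51.0 CPM against 94.3 and 78.4 CPM, but Gal and Calcr were highest in it, at 52.6 and 44.3 CPM. The part of the dissected region in the Gnrh1 values was not tested. Among those 5, Nts, the neurotensin precursor, rose by 0.66 ± 0.14 SE on the log2 scale (edgeR adjusted p = 0.0251). The galanin precursor Gal did not pass (log2 fold change 0.58, adjusted p = 0.0516).

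Npvf, the precursor of the RFamide peptides that inhibit the axis, fell. It had 41, 52 and 21 reads in the aged libraries and 128, 76 and 73 in the young ones, or 2.30, 2.70 and 1.21 against 7.50, 4.37 and 4.06 CPM. Every aged library was below every young one, and young replicate 1 was the highest. Means were 2.07 ± 0.770 and 5.31 ± 1.90 CPM (SD, n = 3 each), with a log2 fold change of -1.34 ± 0.32 SE (95% interval -2.05 to -0.64, edgeR adjusted p = 0.0365). The call was lost when any library but aged replicate 2 was left out (adjusted p = 0.0532 to 0.115), with log2 fold changes of -1.50 to -1.01. Its receptor Npffr1 did not pass (log2 fold change -0.15 ± 0.11 SE), and Npffr2 was below the filter for testing.

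Npvf neurons lie in the dorsomedial hypothalamus, close to the orexin (Hcrt) and melanin-concentrating hormone (Pmch) neurons. Those 2 genes and Lhx9, listed for the lateral hypothalamus, summed to 442 to 532 CPM in aged and 572 to 817 CPM in young libraries. Hcrt fell, with a log2 fold change of -0.82 ± 0.15 SE (edgeR adjusted p = 0.0161). Pmch did not pass (log2 fold change -0.25 ± 0.13 SE). Young replicate 1 was the highest library for Npvf, Hcrt (247 CPM) and Pmch (563 CPM), while Lhx9 was highest in young replicate 2 (9.59 CPM). The part of the dissected region in the Npvf result was not tested.

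**Figure D2:**
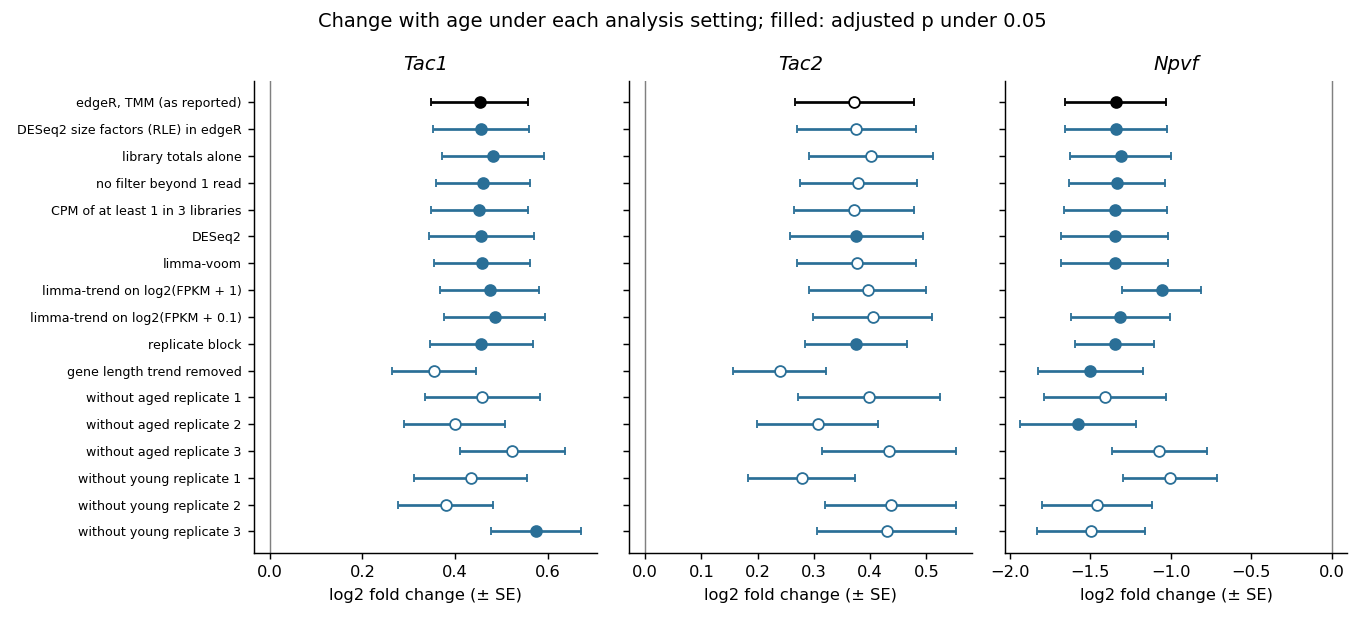
The log2 fold change of aged over young (± SE) is plotted for Tac1, Tac2 and Npvf under the reported setting (black) and 16 alternatives (blue), filled where the adjusted p was under 0.05. All points keep their side of 0; Tac1 is filled in 10, Tac2 in 2 and Npvf in 11 of the alternatives.

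Esr1, which encodes oestrogen receptor alpha, differed mainly in how much the young mice varied. It stood at 11.4, 12.0 and 10.9 CPM in the aged libraries and 10.8, 15.3 and 21.8 CPM in the young ones. Young replicate 1 was at the aged level, and young replicate 3 was 2.01 times as high. Of the 10720 genes with a mean of at least 10 CPM, 0.485% had a spread of at least 2-fold among the young libraries. The log2 fold change was -0.48 ± 0.21 SE (edgeR adjusted p = 0.177), and without young replicate 3 it was -0.19 (adjusted p = 0.522).

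Kiss1 and Esr1 were ordered alike over the young mice, lowest in replicate 1 and highest in replicate 3. Of the genes tested, 13.2% had that order. Pomc, the proopiomelanocortin gene of arcuate neurons and of the pituitary, had 26.5, 32.4 and 60.6 CPM in young mice 1, 2 and 3. Th, the dopamine synthesis enzyme, stood at 51.0, 72.4 and 92.9 CPM, and Oxt, the oxytocin precursor, at 245, 288 and 350 CPM. On the list of hypothalamic markers that holds Oxt, Pomc and Sim1 had this order too. Nkx2-1, Otp, Nr5a1, Agrp, Avp, Trh, Crh, Hcrt and Pmch of that list did not, with Avp at 220, 253 and 248 CPM. Of the 8 listed arcuate genes, Ghrh and Prlr also had this order, and the remaining 4 did not, with Agrp at 0.352, 2.30 and 1.28 CPM, Npy at 7.85, 26.1 and 20.6 CPM, Tbx3 at 5.86, 11.0 and 10.3 CPM and Cartpt at 67.2, 59.7 and 64.9 CPM. Prl stood at 0.352, 7.18 and 142 CPM in the same libraries. Esr1 is expressed in arcuate neurons and in the pituitary too, and the part of either in the young spread was not tested.

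**Figure D3:**
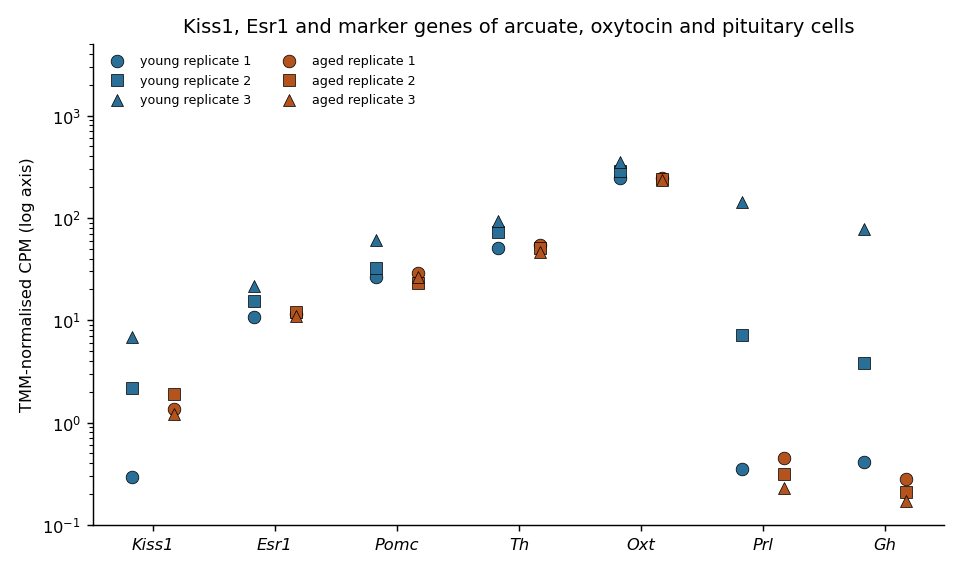
TMM-normalised CPM on a log axis is plotted for Kiss1, Esr1, Pomc, Th, Oxt, Prl and Gh, with young libraries in blue, aged ones in orange and a marker shape for each replicate. Young replicate 3 (blue triangle) is the highest library for all 7 genes, with Prl at 142 CPM against 0.231 to 0.448 CPM in the aged libraries. Oxt and Gh were chosen after their values were seen, and other hypothalamic markers, such as Avp and Hcrt, were not highest in that library.

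Pgr, the progesterone receptor, stood at 23.3, 28.0 and 28.5 CPM in the aged libraries and 17.7, 31.9 and 22.2 CPM in the young ones. Young replicate 2 was the highest and young replicate 1 the lowest library, so the aged values lay inside the young range. Between the ages the log2 fold change was 0.15 (95% interval -0.26 to 0.56, edgeR adjusted p = 0.643), and without young replicate 1 it was -0.014. The order of Pgr over the young mice was not that of Esr1. Pgr is induced by oestrogen in hypothalamic neurons, and the part of oestrogen in its level was not tested. The FPKM ratio of Esr1 to Pgr was 1.58 to 2.02 in aged and 1.99 to 4.06 in young libraries.

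Per gene length, the tachykinin precursors stood far above the rest. In young mice Tac2 and Tac1 were at 36.8 ± 4.84 and 34.4 ± 5.13 FPKM (SD, n = 3 each) and did not separate from each other. Npvf (6.41 ± 2.26), Tacr3 (5.58 ± 0.635), Gnrh1 (4.69 ± 1.28) and Tacr1 (3.75 ± 0.423) followed with overlapping neighbours. Kiss1r (2.95 ± 0.349), Esr1 (2.39 ± 0.853), Kiss1 (1.25 ± 1.37) and Pgr (0.864 ± 0.257) overlapped in turn. In aged mice Tac2 and Tac1 were at 48.5 ± 4.82 and 48.0 ± 4.54 FPKM, and Gnrh1 came next at 7.07 ± 3.29 FPKM. The range of Gnrh1 there overlapped that of Tacr3, the next gene. Npvf went from rank 3 in young to rank 7 in aged mice, at 2.56 ± 0.963 FPKM. In aged mice its range overlapped those of its neighbours Kiss1r and Esr1, so the rank is not resolved. The lowest places rest on long gene models: the length behind Pgr was 27.4 kb, 3.97 times its longest M21 transcript.

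**Figure D4:**
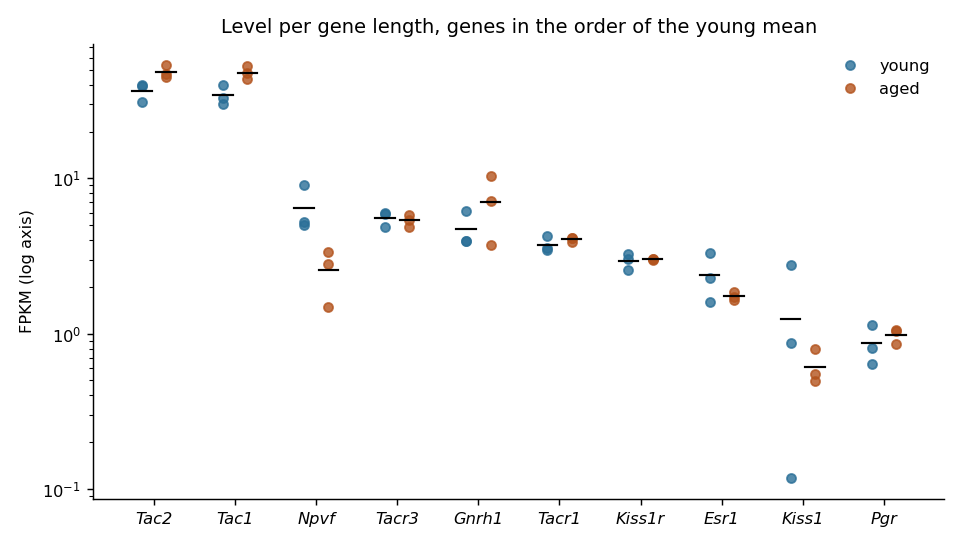
FPKM on a log axis is plotted for each gene in each young (blue) and aged (orange) library, with black lines at the means. Tac2 and Tac1 lie at 30.2 FPKM or more in every library, and every other gene lies at 10.3 FPKM or less.

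Other genes of the axis were counted from lists. Over all genes tested, 3.22% were called higher and 3.64% lower, and small lists can hold few calls. Of 16 peptide and receptor partners, 12 were tested, 1 rose and 0 fell, with a median log2 fold change of 0.07. The gene that rose was Pdyn, the dynorphin precursor, at 75.6, 64.4 and 67.4 CPM in aged and 54.5, 46.8 and 51.0 CPM in young libraries. Its groups did not overlap, and its log2 fold change was 0.45 ± 0.08 SE (edgeR adjusted p = 0.0186). Pdyn and Tac2 are both made by arcuate kisspeptin neurons and by many other hypothalamic cells. The striatal markers set beside Tac1 summed to 521, 363 and 403 CPM in the aged and 355, 343 and 388 CPM in the young libraries. The part of that tissue in the Pdyn result was not tested. Gal, Galr1, Npffr1, Lepr and Vip came next by adjusted p and did not pass, and the kappa opioid receptor Oprk1 was at 0.02 (adjusted p = 0.895). Gnrhr, Tac4, Tacr2 and Npffr2 were too low to test.

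Of 16 genes of sex steroid signalling, 2 rose and 0 fell, with a median log2 fold change of -0.06. The share called over all genes tested was 6.86%. Greb1, a gene known to be induced through oestrogen receptor alpha, stood at 14.0, 16.3 and 15.6 CPM in aged and 4.16, 4.65 and 6.01 CPM in young libraries. It rose 3.09-fold (log2 fold change 1.63 ± 0.14 SE, edgeR adjusted p = 0.000751). It was called in 16 of 16 alternatives. Cyp19a1, aromatase, which makes oestrogen from androgen, had 28, 22 and 16 reads in aged and 3, 5 and 2 reads in young libraries. It rose (edgeR adjusted p = 0.0102), with a ratio of 6.36 on summed reads and a 95% exact binomial interval of 3.25 to 13.9 that covers counting error only. Young replicate 3, with the highest Esr1, had the fewest Cyp19a1 reads. Esr2, oestrogen receptor beta, did not pass (log2 fold change -0.33 ± 0.21 SE). The coactivators Ncoa1 and Ncoa2 and the membrane-associated Pgrmc1 did not pass. Because the Y-linked signal divides the libraries as age does, the Greb1 and Cyp19a1 differences cannot be told apart from a difference between the sexes.

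Of 19 genes of puberty and GnRH neuron development, 17 were tested, 0 rose and 1 fell, with a median log2 fold change of 0.05. Again, 6.86% of all genes tested were called. Mkrn3, an imprinted gene that restrains puberty, had 3, 4 and 10 reads in aged and 17, 17 and 19 in young libraries (edgeR adjusted p = 0.0455). The ratio of young to aged reads was 3.24, with an exact interval of 1.84 to 5.96 for counting error. The call was lost in 7 of the 15 alternatives that tested it. Isl1, Ebf2, Nkx2-1, Rnf216 and Vax1 followed and did not pass. Lin28b, Chd7 and Fgfr1 did not pass either.

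**Figure D5:**
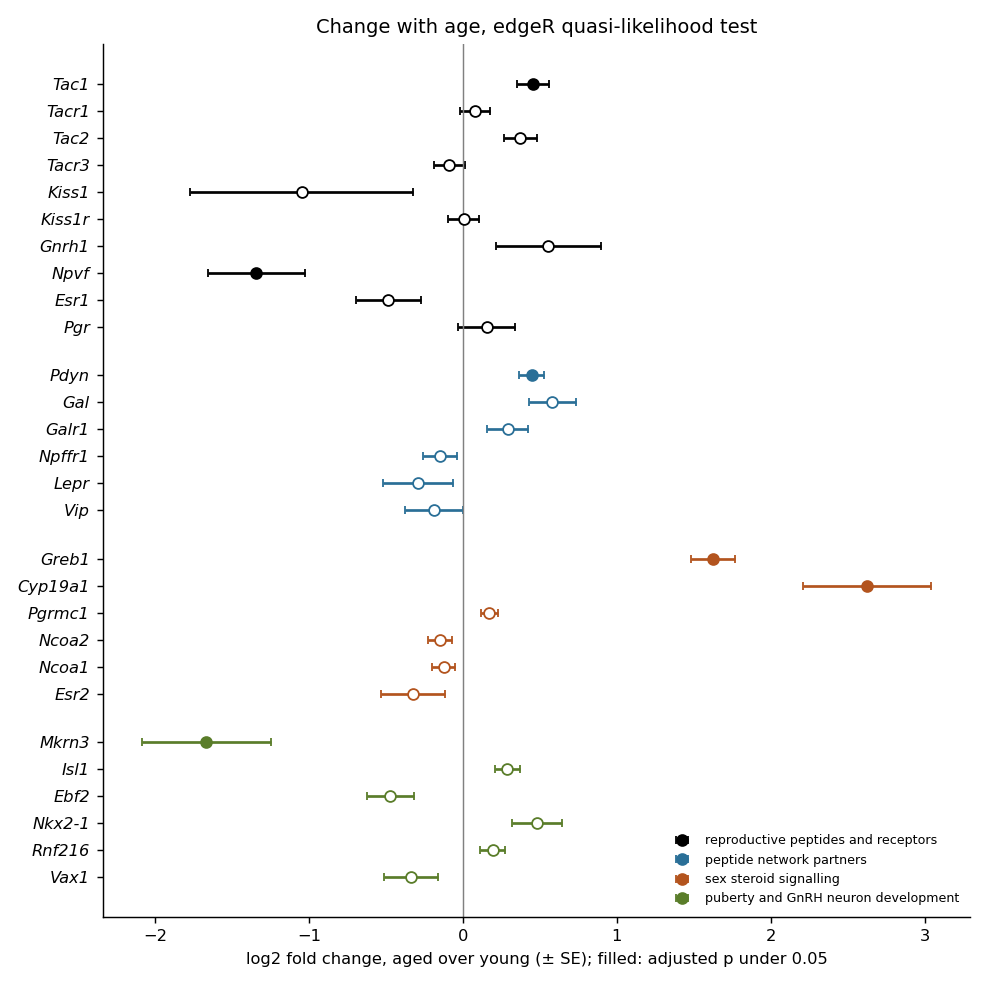
The log2 fold change of aged over young (± SE, edgeR) is plotted for the 10 genes (black) and for the 6 genes with the smallest adjusted p from each of 3 lists of the axis (colours), filled where the adjusted p was under 0.05. Cyp19a1, Greb1, Pdyn and Tac1 are filled above 0, and Npvf and Mkrn3 below it.

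Nearby neurons were counted in the same way, beside the 6.86% called over all genes tested. Of 8 arcuate genes, Cartpt, a feeding-related peptide gene, rose (log2 fold change 0.32 ± 0.07 SE) and 7 did not pass, Agrp, Npy, Th, Pomc and Tbx3 among them. In edgeR, 0 of 6 ventromedial genes passed, Nr5a1 and Fezf1 included (1 at an unadjusted p under 0.05, 0 in DESeq2 and 0 in limma-voom). Of 6 mammillary genes, 0 passed (0 at an unadjusted p under 0.05, 0 in DESeq2 and 0 in limma-voom). Among these 6, 5 had log2 fold changes below 0 and 1 above, with a median of -0.39. They summed to 37.6 to 71.2 CPM in aged and 49.5 to 56.2 CPM in young libraries. Of 10 general neuron genes, 0 passed (1 at an unadjusted p under 0.05, 1 in DESeq2 and 0 in limma-voom). The neuron list summed to 4555 to 4901 CPM in aged and 4735 to 5236 CPM in young libraries, so its range overlapped between the ages.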

How the data were processed

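Polyadenylated RNA of the hypothalamus was sequenced from 6 mice with a stranded kit, per the labels' protocols. Deposited values come as raw read counts by gene symbol and as FPKM, which the authors scaled to gene length and library total. Of the FPKM values above 0, 100% equal counts over a length and the total within 1e-06. Trimmomatic, HISAT2, Cufflinks, HTSeq, DESeq and GRCm39 are named without roles or versions, per the submitters' processing notes. Annotation release and strand setting are not given there.

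The members and gene lists were chosen with earlier results of these data known. The rule for naming took all 10 members, up to 6 genes per list with the smallest adjusted p and, for each member, the 3 genes most like it over the libraries. Genes named beyond it, such as Oprk1, Lin28b, Chd7 and Fgfr1, or Oxt and Gh among markers, were chosen after their values were seen. Counts were tested with edgeR 4.0.16 (R 4.3.3), quasi-likelihood, aged against young without covariate, after filterByExpr (minimum count 10, total 15) and TMM scaling, with Benjamini-Hochberg adjustment over 14702 genes. Levels are TMM-normalised CPM, intervals are 95%, and the scripts were tested on simulated data. Alternatives used limma 3.58.1, DESeq2 1.42.0, other scalings and filters, FPKM with pseudocounts 1 and 0.1, a length trend, a replicate block and leaving out each library. Replicates of a group differed by more than counting error, with chi-square values of 4.04 to 12.1 per degree of freedom, so each library counted as 1 sample.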

Additional observations from a re-analysis of the deposited data

How the results depend on the processing

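Of the 10 genes, 2 were called, and 0 to 1 without single libraries (0 to 1 higher, 0 to 1 lower). The number higher was 2 with DESeq2 and 0 with the gene length trend removed, where 1 gene in all was called; the cause was not tested. Over all genes, 1009 were called (474 higher, 535 lower), and 150 to 1633 without single libraries (95 to 901 higher, 55 to 732 lower). Library totals alone gave 627 higher and 446 lower. The number lower was 293 and 303 on log2(FPKM + 1) and log2(FPKM + 0.1), beside 616 and 622 higher, and 355 without the length trend, beside 385 higher. Of the other listed genes 14 were called, and 4 to 22 without single libraries (4 to 12 higher, 0 to 10 lower); 6 were lower, and 3 on either FPKM scale. Without single libraries the log2 fold change ran from -1.57 to 0.28 for Kiss1, -0.014 to 0.42 for Pgr and -0.075 to 0.092 for Kiss1r; signs turned without young replicates 3, 1 and 2, respectively. Tac1 kept its call in 10 and Npvf in 11 of 16 alternatives, each with the same sign in all 16.

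With the replicate number as a block, 1190 genes and 3 of the 10 were called, 2 of these higher. Tac2 was then called (adjusted p = 0.0449). The labels do not say that the numbers pair the mice. Deviations of same-numbered libraries correlated at 0.16, 0.07 and -0.18, and not every library correlated best with its own number. With 3 libraries a group, each centred on its group mean, these values cannot decide whether the mice were paired.

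For Kiss1, Gnrh1, Npvf, Cyp19a1 and Mkrn3, low read counts limit precision, and 3 mice a group limit all results.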

Other observations

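For each gene, the genes most like it were found by Pearson correlation of log2 CPM over the 6 libraries, after each group's mean was subtracted, among up to 11119 genes with a mean log2 CPM of at least 3. With so few libraries every member found neighbours at 0.987 or higher, so these are descriptions. Esr1 was the second neighbour of Kiss1 (0.997), and Coch, the cochlin gene, was the first of Esr1 (0.998) and the third of Kiss1 (0.997). Oxt was the third neighbour of Esr1 (0.992). Foxb1, a transcription factor of the mammillary region, was the third neighbour of Tac2 (0.997), after Gpr27 and Lrch2. The first neighbours were Ears2 for Tac1 (0.995), Adamts16 for Npvf (0.991), Lama2 for Gnrh1 (0.998), Zan for Kiss1r (0.998), Mcoln1 for Tacr1 (0.997), Vps33b for Tacr3 (0.999) and Zfp738 for Pgr (0.9998). All of these points share library and depth.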
